A study of Mus musculus with 3 samples.

Results

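The Roundabout (Robo) receptors and their Slit ligands were followed through the nuclei of the newborn mouse aortic valve region. The members are 7 genes, the receptors Robo1, Robo2, Robo3 and Robo4 and the secreted ligands Slit1, Slit2 and Slit3, taken by name from the 36167 features of the count tables, and all 7 were found there. They were read in nuclei with at least 1000 unique molecular identifiers (UMIs, each standing for 1 captured RNA molecule) and at most 5% mitochondrial UMIs. That rule left 14073 of 21140 deposited nuclei, and 13085 after likely doublets and nuclei with fewer than 300 genes were removed.

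Nuclear RNA was profiled by the gene expression arm of the 10x Genomics Multiome assay in 3 pools of flash-frozen aortic valve structures, with 22 to 24 aortic roots in a pool. All mice were at postnatal day 1 and of the B6.Cg-Scx<tm1.1(EGFP)Skom mouse strain, in which the gene of the transcription factor scleraxis carries an EGFP allele whose zygosity is not stated. The pools form 1 group with no control or treated arm, so every comparison is between classes of nuclei within the same pools. Whether pools shared litters is not stated, and p-values measure only the spread between these 3 pools.

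Slits are secreted glycoproteins that bind the immunoglobulin domains of Robo1 and Robo2 with the help of heparan sulphate, and they are best known for steering axons away from the midline. Bound receptors recruit GTPase-activating proteins and adaptors to their tails and so change the actin cytoskeleton. In the heart, Slit-Robo signalling is known for roles in valve and septum formation, and Robo4 is known as an endothelial receptor whose binding to Slits is weak or disputed.

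The pools held 21254247 to 49918251 UMIs, and 14.1% to 41.8% of their deposited nuclei were over the mitochondrial limit. Barcodes found in more than 1 pool were few, 196 in a pair of pools and 2 in all 3. Clustering without the members or the other pathway genes gave 27 clusters, and classes rebuilt from marker genes carry the suffix "-like", since no deposited annotation of single nuclei was used. The marker levels gave the classes their names and so only describe them: the summed markers of the valve interstitial-like class reached 7810 to 9191 CPM (counts per 1000000 UMIs of the class in a pool) against 467 to 552 elsewhere. A class kept apart after clusters were seen, the Clca3a2/Pi15 cluster of 1008 nuclei, passed the pericyte markers Pdgfrb, Notch3 and Rgs5, which smooth muscle also expresses, but had little of the pericyte genes Kcnj8 (7.03 CPM) and Vtn (0.270 CPM). Abcc9, another pericyte gene, was at 124 CPM there and 136.5 CPM in the smooth muscle-like class. Of the smooth muscle genes, set against that class, Myh11 was at 398 CPM against 904, Lmod1 at 228 against 308 and Synpo2 at 1164 against 969, and the cluster is called by its leading genes. Another 5 clusters with 1849 nuclei stayed unnamed.

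Across classes, 6 of the 7 members passed the filter on low counts and were tested, each class against the mean log2 level of the other 8 with edgeR's quasi-likelihood test on counts summed per pool. Of the 54 pairs of a member and a class, 37 passed an adjusted p of 0.05, 17 higher and 20 lower. This count includes Robo4 (2 higher and 2 lower) and Slit1 (1 and 1), which passed the filter through classes in which they are high. Among all 14422 genes tested, 40% of such pairs were called, 22% higher and 18.1% lower. Levels below are raw CPM of a class in a pool, while log2 differences come from the fit, which rescales libraries by TMM factors that averaged 0.783 in cardiomyocyte-like and 1.19 in macrophage-like nuclei and lay between 0.909 and 1.09 in the other classes. Without that scaling, the median log2 difference of all genes in cardiomyocyte-like nuclei moved from -0.07 to -0.45 and their calls from 4837 higher and 4769 lower to 3158 and 7122. Calls over all genes moved from 2302 higher and 2150 lower to 3196 and 1031 in macrophage-like nuclei (median from -0.12 to 0.14) and from 4785 and 3768 to 4075 and 4935 in mesothelial-like nuclei (-0.01 to -0.20). They moved from 1847 and 1554 to 2238 and 1083 in lymphatic endothelial-like nuclei (-0.12 to 0.02) and from 2432 and 1681 to 3098 and 1200 in fibroblast-like nuclei (-0.02 to 0.09). Among calls of a member in a class against the others, that scaling decided those of Robo1 in cardiomyocyte-like (described with Robo1 below) and Robo2 in endothelial-like nuclei (adjusted p = 0.0914 without it), and Slit2 in mesothelial-like nuclei was called lower without it (0.0277).

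**Figure D1:**
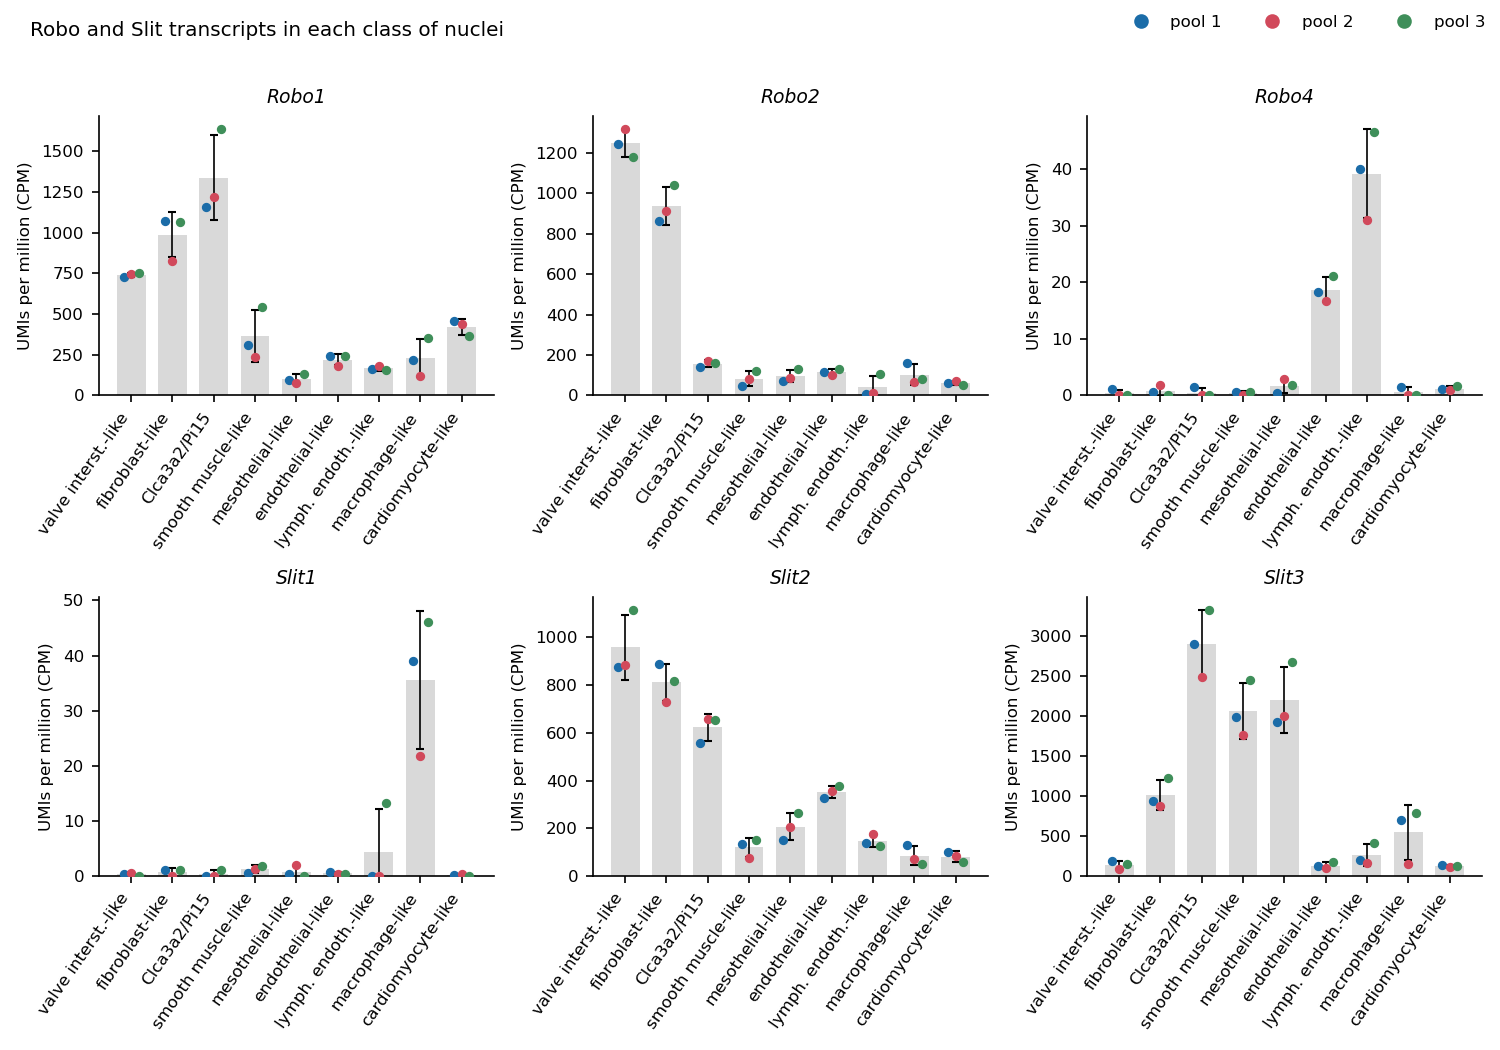
Level of each tested member in 9 classes of nuclei, in CPM of the class in a pool (y axes, separate for each gene). Bars are means over 3 pools, error bars are SDs and points are pools. Robo2 and Slit2 are highest in valve interstitial-like and fibroblast-like nuclei, Slit3 in the Clca3a2/Pi15 cluster, mesothelial-like and smooth muscle-like nuclei, Robo4 in both endothelial classes and Slit1 in macrophage-like nuclei.

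Robo2, a Slit receptor with the same domain plan as Robo1, was highest in valve interstitial-like nuclei, the cells that build the leaflet matrix. Its level there was 1245, 1316 and 1179 CPM in pools 1, 2 and 3, or 1246.5 ± 68.2 (SD, n = 3 pools), against a mean of 199 CPM over the other classes. Every pool of this class lay above every pool of every other class. The log2 difference from the other classes was 3.44 (SE 0.15, edgeR adjusted p = 6.53e-20).

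Fibroblast-like nuclei came next for Robo2, at 861, 910.5 and 1043 CPM. The log2 difference from the other classes was 2.90 (SE 0.15, edgeR adjusted p = 5.10e-17), and the difference between the valve interstitial-like and fibroblast-like classes, 0.48 (SE 0.22), missed the threshold with an edgeR adjusted p of 0.152 but passed under 3 alternatives (smallest adjusted p = 0.0046). A gap followed, since the Clca3a2/Pi15 cluster held 157 ± 15.8 CPM, a log2 difference of 2.50 below fibroblast-like nuclei (SE 0.25, edgeR adjusted p = 9.996e-10). Below it stood the endothelial-like class at 114 CPM and, in order, the macrophage-like, mesothelial-like, smooth muscle-like and cardiomyocyte-like classes, the last at 61.1 CPM. No neighbours in that stretch differed past the threshold, although some pairs did under other settings. In lymphatic endothelial-like nuclei Robo2 was at 7.29, 9.29 and 106.5 CPM, so pool 3 alone set the mean of 41.0 CPM, from 21 UMIs in all.

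Robo2 was called lower in 5 classes. The cardiomyocyte-like (log2 difference -1.01) and lymphatic endothelial-like (-2.77) calls held under every alternative run, but their sizes moved. The first was -0.61 without pool 3 and -2.42 without a cluster led by Ryr3 and Cpne5 that gave 67.1% of the class's Robo2 UMIs from 10.6% of its nuclei. The second was -4.51 without pool 3. The endothelial-like call was marginal (-0.48, edgeR adjusted p = 0.0483) and was lost without pool 2 (adjusted p = 0.0668), without pool 3 (0.307) and under 5 other settings. The mesothelial-like call (-0.60, edgeR adjusted p = 0.0234) was lost without pool 1 (adjusted p = 0.0835), without pool 3 (0.0626) and under 3 others. The smooth muscle-like value of -0.98 (edgeR adjusted p = 0.000348) was -0.61 without pool 1 and became 0.42 when nuclei over the mitochondrial limit were kept and all nuclei clustered again.

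Robo1, the broadly expressed receptor of Slit2 and Slit3, was highest in the Clca3a2/Pi15 cluster. There it stood at 1156, 1220.5 and 1635 CPM, or 1337 ± 259.9 (SD, n = 3 pools), a log2 difference of 2.09 from the other classes (SE 0.12, edgeR adjusted p = 9.37e-16). Fibroblast-like nuclei held 1069, 825.5 and 1068 CPM and valve interstitial-like nuclei 725, 743 and 749.7 CPM. These 3 classes did not overlap in their pools with one another or with any other class. Fibroblast-like and valve interstitial-like nuclei were higher than the other classes by log2 differences of 1.51 (SE 0.13) and 1.12 (SE 0.13), with edgeR adjusted p-values of 6.62e-12 and 8.30e-09. Neighbours in the order differed for the Clca3a2/Pi15 cluster against fibroblast-like nuclei (log2 difference 0.52, edgeR adjusted p = 0.0369), a call lost under 6 alternatives. These were no TMM scaling (adjusted p = 0.0915), no pool block (0.179), DESeq2 (0.0892), doublets kept (0.133) and leaving out pool 2 (0.0915) or pool 3 (0.129). Fibroblast-like against valve interstitial-like nuclei missed it (0.35, adjusted p = 0.216) but passed under 3 alternatives (smallest adjusted p = 0.030). Valve interstitial-like nuclei stood above cardiomyocyte-like nuclei (0.42, edgeR adjusted p = 0.0442), a call lost with any pool left out. The fit put cardiomyocyte-like above smooth muscle-like nuclei (0.57, edgeR adjusted p = 0.00818), a call lost without pool 1 (0.110) or pool 2 (0.202). Smooth muscle-like nuclei stood above macrophage-like nuclei (1.02, edgeR adjusted p = 0.000388), a call lost with doublets kept (0.124).

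Further down the order of Robo1, smooth muscle-like nuclei were at 311, 234 and 544 CPM, a wide spread with pool 3 high, and the difference from the mean of the other classes missed the threshold (log2 difference 0.005, edgeR adjusted p = 0.999). In 4 settings that clustered the nuclei again and gave no Clca3a2/Pi15 class (at least 500 or 2000 UMIs per nucleus, no mitochondrial limit, or clustering resolution 2), smooth muscle-like nuclei were called higher, by 0.69 to 0.97. A fit that changes only the place of that cluster was not made. Robo1 was called lower in endothelial-like (220.3 CPM), macrophage-like (229.9 CPM), lymphatic endothelial-like (167 CPM) and mesothelial-like nuclei (102 CPM), by log2 differences of -0.90, -1.14, -1.36 and -1.97. All 4 of these calls held under the alternatives run, the macrophage-like one at as little as -0.52 (at least 2000 UMIs).

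The cardiomyocyte-like class was called higher for Robo1 (log2 difference 0.64, SE 0.13, edgeR adjusted p = 6.80e-05), although its mean of 421 CPM was under the 518 CPM averaged over the others. Without TMM scaling the difference was 0.26 with an adjusted p of 0.0889. The level came mostly from 1 cluster of 198 nuclei led by Ryr3, Cpne5 and Fgf12, which held 10.6% of the class's nuclei and 70.3% of its Robo1 UMIs. Robo1 in that cluster was 2615, 4109 and 2269 CPM in the 3 pools, against 131, 105 and 162 CPM in the main cardiomyocyte-like cluster of 1550 nuclei, with no overlap between them. Without the Ryr3/Cpne5 cluster, an alternative added after the data were seen, the class was lower than the others by a log2 difference of -0.93 (edgeR adjusted p = 7.18e-07). The same cluster held 412 ± 63.7 CPM of Robo2, 390.9 ± 154.5 CPM of Slit2 and 771 ± 23.0 CPM of Slit3, against 22.7, 44.7 and 51.1 CPM in the main cluster.

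**Figure D2:**
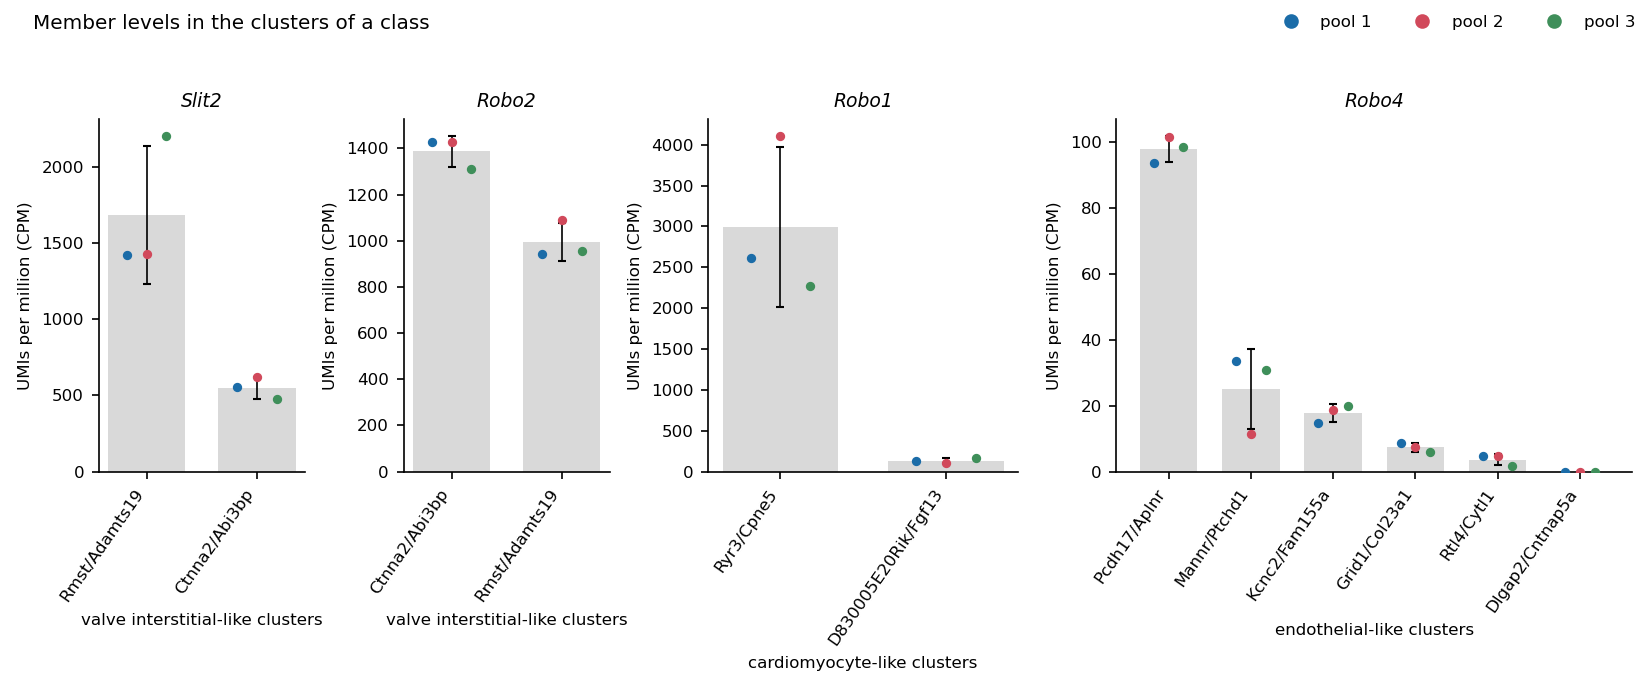
Level of 4 members, in CPM (y axes, separate for each panel), in the clusters of a class that have at least 20 nuclei in every pool, each cluster named by its leading genes. Bars are means over 3 pools, error bars are SDs and points are pools. Slit2 is higher in the Rmst/Adamts19 cluster and Robo2 in the Ctnna2/Abi3bp cluster, Robo1 stands at 2998 CPM in the Ryr3/Cpne5 cluster against 133 CPM in the main cluster (led by D830005E20Rik and Fgf13), and Robo4 is at 98.0 CPM in the Pcdh17/Aplnr cluster.

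Robo4, the short endothelial member of the family, was highest in the endothelial classes. They held 266 and 28 of its 377 UMIs in the analysed nuclei. Endothelial-like nuclei held 18.3, 16.7 and 21.1 CPM, or 18.7 ± 2.20 (SD, n = 3 pools), and lymphatic endothelial-like nuclei 40.1, 31.0 and 46.6 CPM. In every other class of the fit the mean was at most 1.70 CPM, and all pools of the endothelial classes lay above all pools of those classes. Outside the classes, the unnamed Mylk4/Col19a1 cluster held 3, 1 and 27 Robo4 UMIs in the pools, or 2.75, 3.06 and 5.17 CPM, and a cluster led by haemoglobin genes held 3, 5 and 0 UMIs. Robo4 passed the low-count filter through these classes alone, since only their 6 libraries of 27 were over its minimum of 6.75 CPM, so the calls below rest on a gene that entered the test where it is high. The endothelial-like class was higher than the rest by a log2 difference of 3.68 (SE 0.25), with an edgeR adjusted p of 1.87e-14. The lymphatic class differed by 4.77 (SE 0.47), with an edgeR adjusted p of 5.65e-10. Between both endothelial classes the difference of 0.97 (SE 0.37) missed the threshold with an edgeR adjusted p of 0.0699, although their pools did not overlap. It passed under 4 alternatives, with DESeq2 size factors (adjusted p = 0.047), DESeq2's Wald test (0.0391), no mitochondrial limit (0.0173) and without the Pcdh17/Aplnr cluster of the endothelial-like class, where it was -1.895 for endothelial-like against lymphatic nuclei (0.000743).

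Robo4 calls in the other direction rested on a handful of UMIs. Smooth muscle-like nuclei held 5 and valve interstitial-like nuclei 3, and their calls as lower (edgeR adjusted p = 0.0207 and 0.0373) were each lost under 5 and 6 alternatives. For smooth muscle-like nuclei these included leaving out pool 1 (adjusted p = 0.963) or pool 2 (0.0902). For valve interstitial-like nuclei they included leaving out pool 1 (1), pool 2 (0.197) or pool 3 (0.148).

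Within the endothelial-like class, Robo4 was uneven. A cluster of 238 nuclei led by Pcdh17, Aplnr and Fabp4, which also carried the capillary gene Gpihbp1 among its leading genes, held 93.8, 102 and 98.6 CPM and gave 52.6% of the class's Robo4 UMIs from 8.72% of its nuclei. The Mannr/Ptchd1/Sema3g cluster held 33.6, 11.3 and 30.8 CPM and the Kcnc2/Wnt9b cluster 14.9, 18.7 and 19.99 CPM. The Grid1/Col23a1 cluster was at 7.33 CPM and the Rtl4/Cytl1 cluster at 3.62 CPM. In the 172 nuclei of the Dlgap2/Cntnap5a cluster no Robo4 UMI was found. These levels describe clusters of the same pools and were not tested against each other.

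The stretch upstream of Robo4 is shown beside that of Slit2 because Robo4 was highest in the endothelial classes and Slit2 in valve interstitial-like and fibroblast-like nuclei. Both are 170-base windows from 250 to 81 bases before the annotated start, from RefSeq on build GRCm38.p6, which is older than the build of the count tables, and capitals mark CG pairs. Robo4 lies at chr9:37401722-37401891 on the plus strand, next to Robo3 with 0 annotated genes between them, and Slit2 at chr5:47982905-47983074 on the plus strand.
Robo4: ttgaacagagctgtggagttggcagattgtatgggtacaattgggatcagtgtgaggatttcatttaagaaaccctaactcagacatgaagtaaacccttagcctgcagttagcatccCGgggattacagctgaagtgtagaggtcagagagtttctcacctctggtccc
Slit2: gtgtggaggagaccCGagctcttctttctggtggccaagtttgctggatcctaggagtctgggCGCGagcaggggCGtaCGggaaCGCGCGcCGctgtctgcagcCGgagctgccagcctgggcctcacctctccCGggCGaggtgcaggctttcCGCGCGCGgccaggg
The Robo4 window holds 1 CG pair, and 29.6% of the 32851 windows of this length in the table hold as few or fewer. The Slit2 window holds 16, and 90.9% hold as few or fewer, with a median of 3 over all windows. Slit3 has 20 CG pairs in its window, Robo1 6, Robo3 9 and the 3 annotated starts of Robo2 9, 3 and 3. The letters AGGAAG, read on both strands, were in none of the windows of the matched members but that of Robo3 and in 20.5% of all windows. This is a description of letters only, and 6 of the 7 members had an entry.

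Robo3, the receptor known for letting commissural axons cross the midline, was at the edge of detection. The analysed nuclei held 4 Robo3 UMIs, 1 in the Clca3a2/Pi15 cluster and 2 in smooth muscle-like nuclei, with the remaining 1 outside the named classes. In the 1527 valve interstitial-like nuclei there were 0, and 3 counts would have made 0.503 CPM there. Robo3 did not pass the filter and was not tested.

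Slit2, the ligand of Robo1 and Robo2 that is cleaved into diffusible and membrane-bound parts, followed an order much like that of Robo2 at its top. Valve interstitial-like nuclei held 877, 884 and 1115 CPM, or 958.5 ± 136 (SD, n = 3 pools), fibroblast-like nuclei 887, 730 and 819 CPM, and the Clca3a2/Pi15 cluster 558, 659.9 and 654 CPM. The first and the second of these overlapped, and the third lay below both. Log2 differences from the other classes were 2.08 (SE 0.12), 1.76 (SE 0.13) and 1.43 (SE 0.13), with edgeR adjusted p-values of 4.53e-16, 1.64e-13 and 1.34e-10. Neighbours among these 3 missed the threshold (adjusted p = 0.329 and 0.298), and the first pair passed with at least 500 UMIs (0.022).

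Endothelial-like nuclei held an intermediate level of Slit2, at 326, 355 and 376 CPM, below every pool of the Clca3a2/Pi15 cluster (log2 difference 0.88 between them, edgeR adjusted p = 0.000185). They were called higher than the mean log2 level of the other classes by 0.43 (edgeR adjusted p = 0.0102), although their mean of 352 CPM was under the 379.5 CPM averaged over the others. This was a call lost under 5 alternatives, among them without pool 3 (adjusted p = 0.0518). Within that class the Mannr/Ptchd1/Sema3g cluster held 555 ± 33.2 CPM, the Rtl4/Cytl1 cluster 492 ± 42.5 and the Kcnc2/Wnt9b cluster 438 ± 43.9, while the Grid1/Col23a1 cluster held 214 ± 67.9, the Pcdh17/Aplnr cluster 166 ± 53.7 and the Dlgap2/Cntnap5a cluster 153 ± 46.7. The lower 3 of these clusters did not overlap with the upper 3 in any pool, and the remaining cluster of the class had 54 nuclei.

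Mesothelial-like nuclei, at 207 ± 56.8 CPM of Slit2, did not pass the test against the other classes, and were called lower under 4 alternatives (smallest adjusted p = 0.0277). The cardiomyocyte-like, macrophage-like, smooth muscle-like and lymphatic endothelial-like classes were lower, by log2 differences of -1.46, -1.83, -1.15 and -0.998. The cardiomyocyte-like value was -2.33 without the Ryr3/Cpne5 cluster and the macrophage-like value -0.59 with at least 2000 UMIs, both still called. The smooth muscle-like value fell short of the threshold in the 4 settings in which the Clca3a2/Pi15 cluster was not a class, where it lay between -0.35 and -0.05. Set directly against the Clca3a2/Pi15 cluster at 624 CPM, smooth muscle-like nuclei at 121 CPM were lower in all 3 pools, and the log2 difference of the cluster from them was 2.29 (SE 0.20, edgeR adjusted p = 1.24e-10).

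Slit2 and the receptors also differed between the clusters of the valve interstitial-like class. The Rmst/Adamts19 cluster of 464 nuclei held 1419.8, 1424 and 2203 CPM of Slit2, against 552, 619.9 and 477 CPM in the Ctnna2/Abi3bp cluster of 1063 nuclei. It gave 62.1% of the class's Slit2 UMIs from 30.4% of its nuclei. Robo2 ran the other way, at 941, 1088 and 955 CPM in the Rmst/Adamts19 cluster and 1427, 1427 and 1311 CPM in the Ctnna2/Abi3bp cluster, and so did Robo1, at 582 ± 124 and 827 ± 54.6 CPM. None of these 3 genes overlapped between the clusters in any pool, and no test was made. The share of all genes that lie apart in this way was not counted for these or other clusters.

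Slit3, the ligand with the widest role in mesenchyme and diaphragm development, had another order. The Clca3a2/Pi15 cluster held 2904, 2493 and 3329.5 CPM, mesothelial-like nuclei 1927, 2009 and 2678 CPM, and smooth muscle-like nuclei 1989, 1760.4 and 2449.8 CPM. Mesothelial-like nuclei overlapped with both of the others, while every pool of the Clca3a2/Pi15 cluster lay above every smooth muscle-like pool. Neighbours in the order missed the threshold (edgeR adjusted p = 0.297 and 0.491). Against the other classes their log2 differences were 2.74, 2.44 and 2.24 (SE 0.13 each), with edgeR adjusted p-values of 6.59e-18, 3.30e-17 and 7.65e-16, and all 3 calls held wherever the class existed. Fibroblast-like nuclei were lower than these, at 942, 874 and 1228 CPM, and still above the mean log2 level of the other classes by 0.92 (SE 0.15, edgeR adjusted p = 9.38e-06).

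At the bottom of the order, valve interstitial-like nuclei held 185, 89.0 and 156 CPM of Slit3, endothelial-like nuclei 123, 101 and 174.5 CPM and cardiomyocyte-like nuclei 140.5, 108.9 and 124.5 CPM. These overlapped with each other and lay below every pool of the 4 classes above. In the endothelial-like class the Pcdh17/Aplnr cluster held 492, 302 and 458 CPM and gave 34.6% of the Slit3 UMIs from 8.72% of the nuclei, against 46.8 and 70.5 CPM in the Grid1/Col23a1 and Rtl4/Cytl1 clusters. Without it, cardiomyocyte-like nuclei were higher than endothelial-like nuclei by a log2 difference of 0.77 (edgeR adjusted p = 0.00413), and without the Ryr3/Cpne5 cluster the difference was -0.85 (0.00203). Their log2 differences from the other classes were -2.21, -2.38 and -1.97, and lymphatic endothelial-like nuclei were lower, at -1.44. Still called, the cardiomyocyte-like value was -3.18 without the Ryr3/Cpne5 cluster and the lymphatic value -0.91 with doublets kept. In valve interstitial-like against smooth muscle-like nuclei the log2 difference was -3.96 (SE 0.24, edgeR adjusted p = 1.70e-15). Of the 36 pairs of classes, each read for 6 genes, 130 of 216 comparisons passed the threshold, against 41.2% over all genes. Robo4 and Slit1, which entered the test where they are high, are among these 6.

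Slit3 in macrophage-like nuclei differed between pools, at 698, 152 and 789.9 CPM, with pool 2 low. The melanocyte-like nuclei, 70 in all and not in the fit, were at 719, 69.5 and 635 CPM. Over all analysed nuclei pool 2 was also the lowest, with 564 CPM against 957.5 and 909 CPM, and 19.2% of its nuclei were in the 3 classes with the most Slit3, against 34.3% and 26.4%. The part of RNA from other nuclei in the macrophage-like value was not tested.

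A count of Slit3 overlaps with other annotated genes. In the RefSeq gene table the noncoding genes Gm46277 and Gm46278 lie within Slit3, and the analysed nuclei held 13362 and 444 UMIs of them against 58621 of Slit3. Whether counting used strand is not given in the sources used here, so reads of these genes and of Slit3 cannot be told apart by this table alone.

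Slit1, the ligand best known from the nervous system, was highest in macrophage-like nuclei, which held 39 of its 79 UMIs in the analysed nuclei. Their level was 38.9, 21.7 and 46.1 CPM from 25, 7 and 7 UMIs, against at most 4.44 CPM in the mean of any other class. The next class, lymphatic endothelial-like, held 2 UMIs, both in pool 3. Slit1 passed the low-count filter through the 3 macrophage-like libraries and 1 lymphatic library with 2 UMIs, the only ones over its minimum of 6.75 CPM, so it entered the test through the class in which it is high. With that limit, the log2 difference of macrophage-like nuclei from the other classes was 5.48 (SE 0.47, edgeR adjusted p = 8.47e-12). The cardiomyocyte-like class, with 2 UMIs, was called lower (edgeR adjusted p = 0.0395), a call lost under 8 alternatives, among them without pool 1 (adjusted p = 0.116), pool 2 (0.0734) or pool 3 (0.946).

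The share of nuclei with a UMI gives another view. Each nucleus was thinned to 1000 UMIs, and macrophage-like nuclei, with a median of 3255 UMIs before thinning, served as the class to read background from for Robo1, Robo2, Slit2 and Slit3. Robo2 was detected in 48.5% ± 4.18 of valve interstitial-like and 41.0% ± 3.61 of fibroblast-like nuclei (mean and SD over 3 pools), whose medians were 3596 and 3742 UMIs, against 3.67% ± 1.47 of macrophage-like nuclei. Smooth muscle-like (4.28%) and cardiomyocyte-like nuclei (3.999%) were close to that background. Robo1 was detected in 44.1% ± 2.43 of fibroblast-like nuclei, 41.6% ± 2.73 of valve interstitial-like nuclei and 39.4% ± 6.24 of the Clca3a2/Pi15 cluster, against 9.12% ± 3.08 of macrophage-like nuclei.

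Among the ligands, Slit2 was detected in 37.2% ± 1.29 of fibroblast-like, 33.8% ± 1.87 of valve interstitial-like and 18.8% ± 0.834 of endothelial-like nuclei, against 5.04% ± 2.04 of macrophage-like nuclei. Slit3 was detected in 86.2% ± 1.57 of the Clca3a2/Pi15 cluster, 82.1% ± 6.33 of mesothelial-like and 78.1% ± 3.42 of smooth muscle-like nuclei. In macrophage-like nuclei the Slit3 share was 18.9%, 3.66% and 20.4% in pools 1, 2 and 3. The valve interstitial-like (8.04%, 7.22% and 6.42%), endothelial-like (6.62%, 4.05% and 7.40%) and cardiomyocyte-like shares (8.94%, 7.45% and 7.17%) were under it in pools 1 and 3 and above it in pool 2, so no expression is read from them. For Robo4, 1.49% ± 0.122 of endothelial-like nuclei had a UMI (18 of 1300, 12 of 740 and 10 of 689; Wilson 95% intervals 0.878 to 2.18, 0.930 to 2.81 and 0.790 to 2.65). In cardiomyocyte-like nuclei, the class to read its background from, 1 of 1861 had one. Slit1 was detected in 12 of 253 macrophage-like nuclei, or 4.90% ± 1.23, against 1 of 1527 valve interstitial-like nuclei. Intervals cover counting error only.

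**Figure D3:**
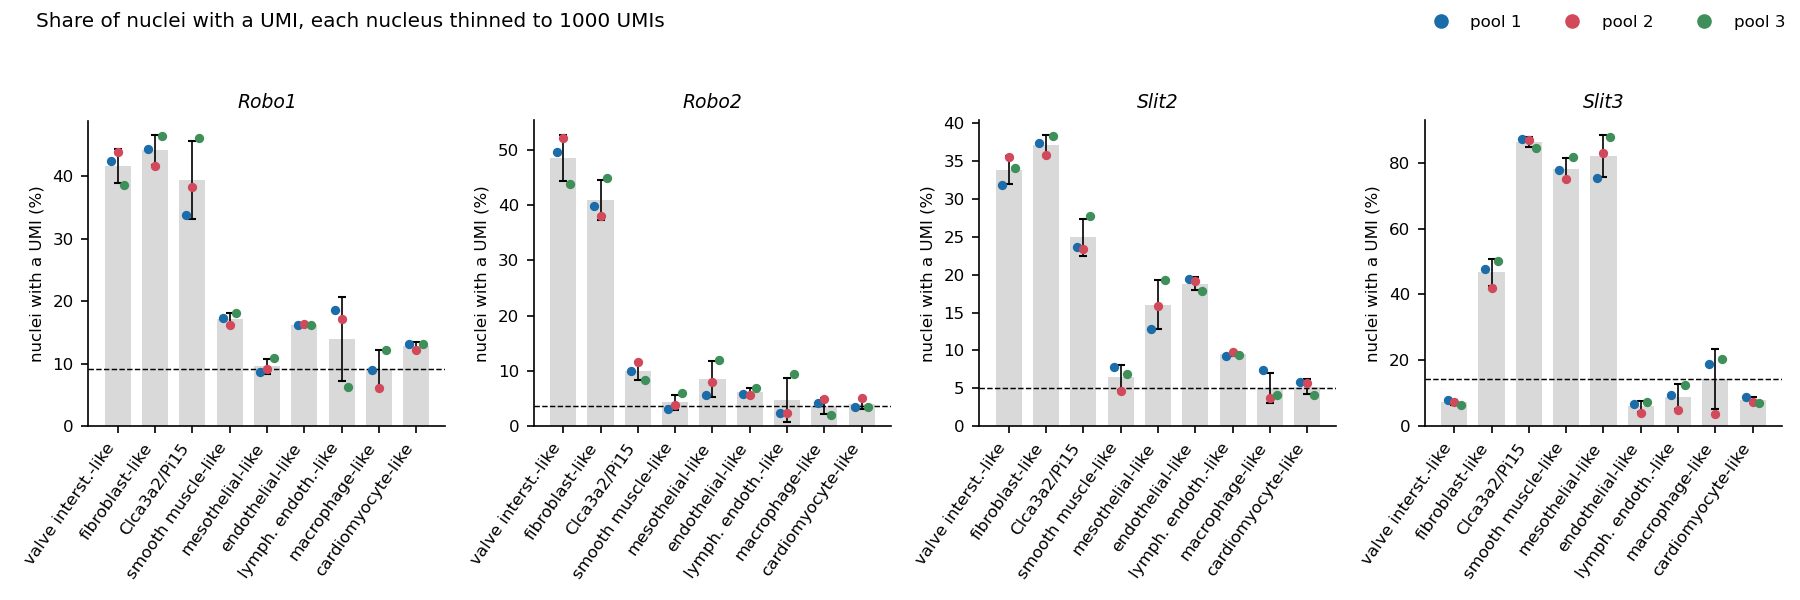
Share of nuclei with at least 1 UMI of a gene after each nucleus was thinned to 1000 UMIs (y axes, percent, separate for each gene), in 9 classes. Bars are means over 3 pools, error bars are SDs, points are pools, and the dashed line is the mean of the macrophage-like class. The Robo2 bars of valve interstitial-like (48.5%) and fibroblast-like nuclei (41.0%) stand far above the line, and for Slit3 the line averages macrophage-like pools that run from 3.66% to 20.4%.

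Receptor and ligand were also read in the same nucleus. In valve interstitial-like nuclei, 17.6% ± 1.09 held a UMI of both Robo2 and Slit2 after thinning, 30.9% ± 4.50 held Robo2 without Slit2, and 22.9% ± 2.81 held both Robo1 and Robo2. In fibroblast-like nuclei, 16.9% ± 1.61 held Robo2 and Slit2 and 19.3% ± 4.53 held Robo1 and Robo2. Robo1 and Slit3 were held together by 22.3% ± 1.90 of fibroblast-like and 3.71% ± 0.928 of valve interstitial-like nuclei. In the Clca3a2/Pi15 cluster, 33.8% ± 3.84 held Robo1 and Slit3. Smooth muscle-like nuclei, high in Slit3, held Robo1 and Slit3 together in 13.5% ± 1.42. In endothelial-like nuclei, 3.31% ± 0.211 held Robo1 and Slit2 and 1.595% ± 0.213 held Robo2 and Slit2. Macrophage-like nuclei, the class to read background from, held Robo1 and Slit2 together in 2.99% ± 0.943, Robo1 and Slit3 in 6.13% ± 5.61, Robo2 and Slit2 in 0.273% ± 0.473 and Robo1 and Robo2 in 0.680% ± 0.622. The endothelial-like share of Robo1 with Slit2 and the valve interstitial-like share of Robo1 with Slit3 were both within that spread. Neither share is read as expression. These shares are a description, and depend on the depth to which nuclei are thinned. They were not set against shares from independent detection of each gene, so no pairing of receptor and ligand within a nucleus is read.

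Set side by side as receptor class and ligand class, valve interstitial-like and fibroblast-like nuclei were called higher for both Robo1 and Robo2 and for Slit2. For Slit3 they went opposite ways, fibroblast-like nuclei higher and valve interstitial-like nuclei lower. Cardiomyocyte-like nuclei were called higher for Robo1, with the limits given above, and the Clca3a2/Pi15 cluster for Robo1, Slit2 and Slit3. Smooth muscle-like and mesothelial-like nuclei were called higher for Slit3 and, in the main fit, for no receptor. In the settings that gave no Clca3a2/Pi15 class, Robo1 was called higher in smooth muscle-like nuclei, as given above. Both endothelial classes were called higher for Robo4, which entered the test only through them, and lower for Robo1, Robo2 and Slit3. In endothelial-like nuclei the Robo2 call was marginal and lost under several alternatives. Slit2 was called higher there, a call also lost under some alternatives. Over the 9 classes, Pearson's r of mean log2 CPM was 0.80 between Robo2 and Slit2, 0.64 between Robo1 and Robo2, 0.63 between Robo1 and Slit2 and 0.14 between Robo1 and Slit3, where all classes of a pool share 1 library.

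The genes whose class pattern was most like a member's, by the same correlation over 9 classes, were Ssc5d (0.96), Egr1 and Cop1 (0.95 and 0.94) for Robo2 and Slc26a7 (0.95), Mios and Mthfd2l (0.93 each) for Robo1. For Robo4 they were Kank3, Gpihbp1 and Btnl9, all at 0.98. For Slit1 they were Selplg (0.99), Lilrb4a and Adgre1 (0.99 each), and for Slit2 Msi1 (0.95), Sertad4 and Clcn4 (0.94 each). For Slit3 they were the Gm46277 (0.999) and Gm46278 (0.95) genes that lie within it, and Osr1 (0.97).

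Clusters outside the named classes also held members. The cluster of 245 nuclei led by Slc36a2, Car3 and Gm30843, with as many adipocyte as fibroblast markers, held 562.5, 1020.3 and 1284 CPM of Robo1, 564 ± 200.2 of Robo2, 532 ± 87.8 of Slit2 and 529.9 ± 121 of Slit3. The Erc2/Lrrc4c cluster of 503 nuclei, with cardiomyocyte markers but neuronal genes at its top, held 497 ± 94.0 CPM of Slit3 and 51.5 ± 39.1 CPM of Robo1. It passed 7 of 9 cardiomyocyte markers and was left unnamed for the listed neuron marker Snap25 among its top 10 genes. Its nuclei are thus outside the cardiomyocyte-like class, which averaged 125 CPM of Slit3 and 421 CPM of Robo1. A fit that changes only the place of this cluster was not made. The Mylk4/Col19a1 cluster of 264 nuclei, in which no class reached a marker, had 56, 16 and 192 nuclei in the pools, so pool 2 is under the limit of 20 used for classes, and a median of 12933 UMIs. It held 1413, 820.1 and 967 CPM of Slit3 and 567, 489.6 and 577 CPM of Robo1. The cluster of 708 nuclei led by the haemoglobin genes Hbb-bt and Hbb-bs held 433 ± 74.0 CPM of Slit3 and 351 ± 176 CPM of Robo1.

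The other genes of the pathway were read from a list of 38, all of which passed the filter. In valve interstitial-like nuclei 19 were higher and 6 lower, where 20.7% of all genes were called higher and 15% lower, and the list's median log2 difference was 0.30 against 0.02 over all genes. In endothelial-like nuclei 14 were higher and 14 lower (23.2% and 16.1% of all genes). Counts were 12 and 16 in both cardiomyocyte-like (33.5% and 33.1%) and mesothelial-like nuclei (33.2% and 26.1%), and 9 and 11 in smooth muscle-like nuclei (24.2% and 21.6%). Counts were 11 and 9 in lymphatic endothelial-like nuclei (12.8% and 10.8%) and 10 and 9 in macrophage-like nuclei (16% and 14.9%). In the Clca3a2/Pi15 cluster 8 were higher and 11 lower (17.3% and 13.3%), and in fibroblast-like nuclei 7 and 2 (16.9% and 11.7%). Without TMM scaling the counts of the list, higher and lower, were 7 and 24 in cardiomyocyte-like, 11 and 19 in mesothelial-like, 10 and 6 in macrophage-like, 12 and 6 in lymphatic endothelial-like, 9 and 1 in fibroblast-like, 8 and 14 in smooth muscle-like and 15 and 11 in endothelial-like nuclei. They stayed at 19 and 6 in valve interstitial-like nuclei, and were 18 and 9 there with DESeq2 size factors.

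**Figure D4:**
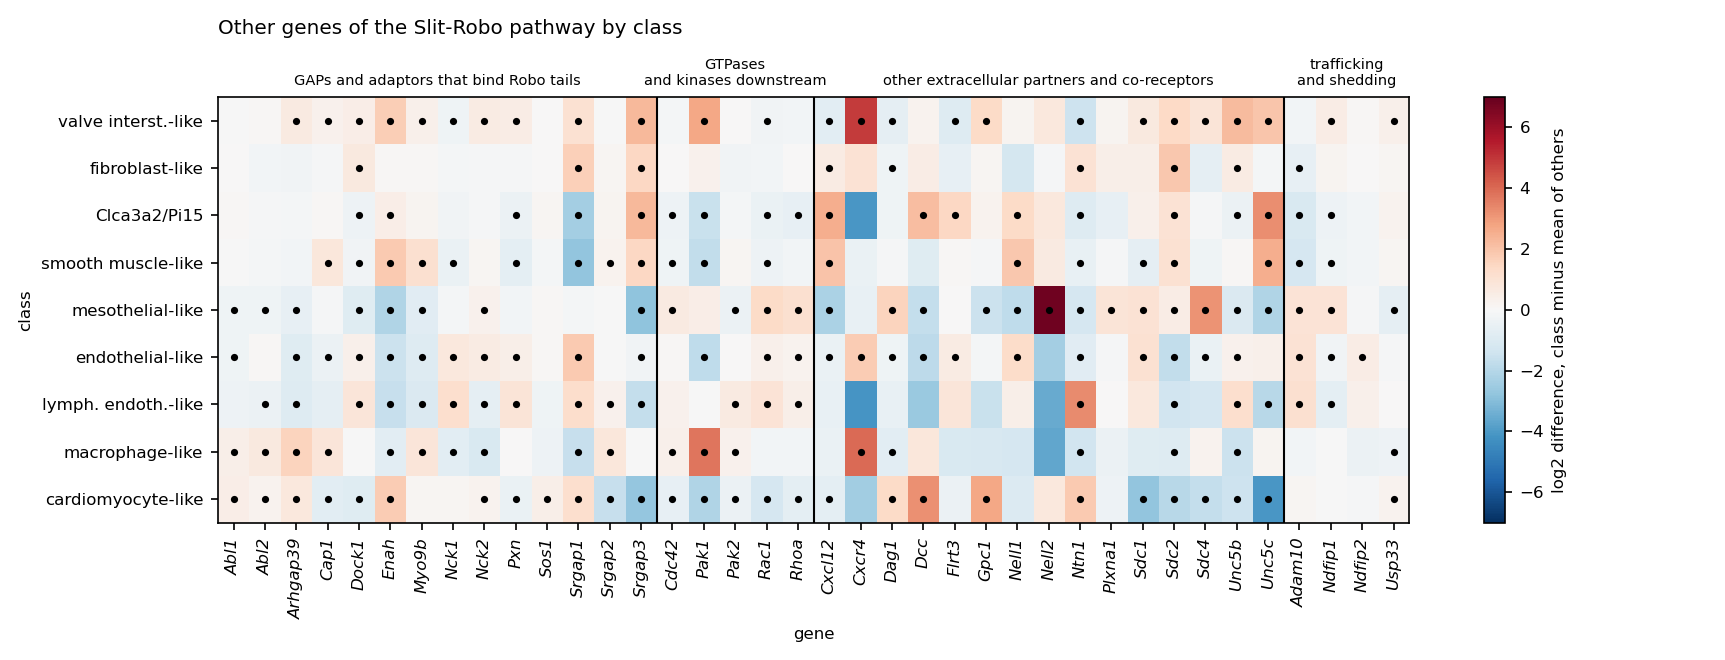
Log2 difference of 38 other pathway genes (columns, grouped by role) in each of 9 classes against the mean of the others (rows), with red for higher and blue for lower. Dots mark an edgeR adjusted p under 0.05. The valve interstitial-like row has 19 dots on red and 6 on blue, and Srgap1 and Srgap3 differ in sign in the smooth muscle-like and Clca3a2/Pi15 rows.

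Of the 14 GTPase-activating proteins and adaptors that bind Robo tails, 9 were higher and 1 lower in valve interstitial-like nuclei, with a median log2 difference of 0.40. Of all genes, 20.7% were higher and 15% lower there. Counts of the 14 were 7 and 5 in cardiomyocyte-like nuclei (33.5% and 33.1% of all genes) and 6 and 4 in macrophage-like nuclei (16% and 14.9%). In valve interstitial-like nuclei Srgap3, a Slit-Robo GTPase-activating protein that restrains Rac, was at 288.5 ± 23.4 CPM (log2 difference 2.26, edgeR adjusted p = 6.64e-23), and Enah, an actin-filament elongating protein, at 1059 ± 125.5 (1.72, edgeR adjusted p = 1.73e-13). Enah was as high in smooth muscle-like nuclei, at 1062 ± 52.9 CPM, and stood at 845 ± 42 CPM in cardiomyocyte-like nuclei. Srgap1, the paralog of Srgap3 that acts on Cdc42, had a different pattern. It was 246 ± 13.4 CPM in endothelial-like and 225 ± 24.6 in fibroblast-like nuclei but 12.8 ± 1.31 in smooth muscle-like nuclei and 15.9 ± 5.02 in the Clca3a2/Pi15 cluster. In those last classes it was lower by log2 differences of -2.78 and -2.40, while Srgap3 was higher by 1.47 and 2.29.

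Among the 15 extracellular partners and co-receptors, 7 were higher and 4 lower in valve interstitial-like nuclei, where 20.7% and 15% of all genes were. Counts were close to this in the Clca3a2/Pi15 cluster (6 and 2) and mesothelial-like nuclei (6 and 7). Unc5b, a netrin receptor that also binds Robo4, was at 329.7 ± 20.6 CPM (log2 difference 2.21, edgeR adjusted p = 2.47e-21), against 105 ± 14.9 in endothelial-like and 181.5 ± 32.3 in lymphatic endothelial-like nuclei. Cxcr4, the receptor of the chemokine Cxcl12, was at 16.3 ± 4.84 CPM in valve interstitial-like nuclei (4.87, edgeR adjusted p = 3.48e-12), and Cxcl12 was higher in the Clca3a2/Pi15 cluster (249.7 ± 57.1 CPM) and smooth muscle-like nuclei (176 ± 50.8). Macrophage-like nuclei held 11.6 ± 2.02 CPM of Cxcr4. Only valve interstitial-like and macrophage-like libraries were over the low-count minimum of 6.75 CPM, so Cxcr4 entered the test where it is high. Syndecan Sdc2, a heparan sulphate carrier, was highest in fibroblast-like nuclei at 421 ± 27.3 CPM (1.91, edgeR adjusted p = 2.41e-16).

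Other partners were highest in other classes. The netrin gene Ntn1 was at 619.5 ± 70.5 CPM in lymphatic endothelial-like nuclei (log2 difference 3.31, edgeR adjusted p = 2.20e-18), and Nell2, a ligand of Robo3, at 29.1 ± 20.7 CPM in mesothelial-like nuclei (6.82, edgeR adjusted p = 1.01e-12). Nell2 was over the low-count minimum of 6.75 CPM in its mesothelial-like libraries alone (50.3, 28.0 and 9.05 CPM from 132, 29 and 5 UMIs). It thus entered the test through the class in which it is high. The netrin receptor Unc5c reached 1857 ± 405 CPM in the Clca3a2/Pi15 cluster (3.24, edgeR adjusted p = 6.14e-19) and 16.0 ± 4.01 in cardiomyocyte-like nuclei (-4.09, edgeR adjusted p = 8.49e-16). Dcc, the netrin receptor that Robo1 silences in axons, was at 35.2 ± 8.28 CPM in cardiomyocyte-like nuclei (3.21, edgeR adjusted p = 1.50e-15). Downstream, the kinase Pak1 was higher in macrophage-like (78.9 ± 13.5 CPM, log2 difference 3.76) and valve interstitial-like nuclei (34.3 ± 4.01 CPM, 2.70). The shedding protease Adam10 was lower in smooth muscle-like nuclei (108 ± 11.1 CPM, -1.18) and higher in endothelial-like nuclei (451 ± 21.4 CPM, 0.99).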

How the data were processed

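The authors deposited raw UMI counts per gene and nucleus for 3 pools, with Cell Ranger 7.1.0 as the software named per the file headers. The submitters' processing notes list Cell Ranger 7.0.1 and 7.1.0 and build GRCm39, while the gene annotation and the use of introns and strand are not given in the sources used here. Nuclei with at least 1000 UMIs, 300 genes and at most 5% of UMIs from 13 mitochondrial genes were used. Scrublet's automatic threshold in scanpy 1.11.5 marked 0, 0 and 1 nuclei, so the highest scores were removed at 0.8% per 1000 deposited nuclei (638, 164 and 145 of the nuclei with at least 300 genes, those under 1000 UMIs included). After 2000 variable genes, 30 components and 15 neighbours, leidenalg 0.10.2 clustered nuclei at resolution 1, without members, pathway, cell cycle, sex and mitochondrial genes.

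A cluster took a class name from at least 3 markers detected in 10% of its nuclei and 2-fold higher than elsewhere (pseudocount 5 CPM). It stayed unnamed when a second class had as many markers, a rule added after clusters were seen, or more among its top 10 genes. One exception, also set after clusters were seen, was the Clca3a2/Pi15 cluster, which passed 3 pericyte markers but neither Kcnj8 nor Abcc9 and was kept as a class under its leading genes. Counts were summed per pool and class (at least 20 nuclei in every pool), which gave 27 libraries, and fitted with edgeR 4.0.16 in R 4.3.3 (filterByExpr, TMM, quasi-likelihood, Benjamini-Hochberg over 14422 genes, threshold 0.05). The fit held the pool as a block, a pairing that comes from the design, since every class of a given pool was read from the same library. Standard errors were computed from the log2 difference and the F statistic. The test was tried on simulated data. DESeq2 1.42.0, other scalings, filters, clusterings and left-out pools were alternatives.

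Any member or pathway gene could be named, preferring the 3 largest rises and falls in a class, and the 3 genes most like each member by correlation. The members, lists and markers were chosen with earlier results of these data known. Deeper nuclei show more genes, so shares used thinned nuclei. The chromatin data are not analysed here. The member levels of 1 unnamed cluster are not reported here.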

Additional observations from a re-analysis of the deposited data

How the results depend on the processing

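Of 37 calls of a member in a class against the others, 28 kept their direction and threshold under every alternative run. The count ranged from 31 to 38 over all alternatives and from 32 to 35 with a pool left out. It was 35 without the replicate block, 34 with DESeq2's Wald test, and 36 without TMM scaling, which was added after the data were seen, as were the fits without the Ryr3/Cpne5 and Aplnr/Gpihbp1 clusters. Calls between pairs of classes ranged from 100 to 178 (126 to 130 with a pool left out) and pathway calls from 157 to 214 (157 to 175 with a pool left out), and none of these counts moved by over 1.5 times. Shares of nuclei rose with depth. Thinned to 2000 UMIs and not thinned, they were 50.0% and 58.9% for Robo1 in the Clca3a2/Pi15 cluster, 60.8% and 69.9% for Robo2 and 45.1% and 50.9% for Slit2 in valve interstitial-like nuclei, 3.66% and 7.63% for Robo4 in endothelial-like nuclei, and 92.1% and 95.1% for Slit3 in smooth muscle-like nuclei. Signs that turned are given as log2 differences. Without the Ryr3/Cpne5 cluster, Robo1 in cardiomyocyte-like nuclei was -0.93 against the others and -0.99 against smooth muscle-like nuclei, and Slit3 was -0.85 against endothelial-like nuclei. With at least 2000 UMIs, cardiomyocyte-like against smooth muscle-like Robo1 was -0.15, Slit2 was -0.88 in cardiomyocyte-like against macrophage-like nuclei, and lymphatic endothelial-like against smooth muscle-like Slit2 was -1.015. At resolution 2 the Robo1 value was -0.27 and the last Slit2 value -0.79. With no mitochondrial limit that Slit2 value was -1.02, Robo2 was -1.11 in mesothelial-like against smooth muscle-like nuclei and 0.42 in smooth muscle-like nuclei against the others. With doublets kept, Slit2 was -0.68 in cardiomyocyte-like against macrophage-like nuclei and 0.57 in macrophage-like against smooth muscle-like nuclei, and Slit3 was 0.62 in endothelial-like against valve interstitial-like nuclei. The Clca3a2/Pi15 class was absent with at least 500 or 2000 UMIs, no mitochondrial limit or resolution 2; the cause of these changes was not tested. Depth limits Robo3, Robo4 and Slit1, with 4, 377 and 79 UMIs in the analysed nuclei.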
